A study of Mus musculus with 6 samples.

Results

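Interleukins are secreted cytokines, and their receptors are surface chains that pair to pass the signal into the cell. The genes described here are those of the platform's probe annotation whose symbol begins with Il and a digit and is the only symbol of its probe set. Of the 76 such genes, Il2ra, Il1rap, Il1r2, Il4 and Il7r were left out by the rule, and 71 remained out of the 19938 genes measured. They comprised 35 ligands, 31 receptor chains and 5 genes of neither kind. Those 5 were the antagonists Il1rn and Il1f5, the binding proteins Il18bp and Il22ra2, and the non-coding RNA Il1bos, whose locus overlaps that of Il1b.

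The samples were 6 Affymetrix whole-transcript arrays of mouse marrow cells, 2 biological replicates in each of 3 groups. In the BCR-ABL-Blk group donor marrow was infected with a retrovirus carrying BCR-ABL, Blk and GFP, in the BCR-ABL group with BCR-ABL and GFP, and in the vector group with GFP alone. BCR-ABL is the fused kinase that drives chronic myeloid leukemia. Blk belongs to the Src kinases and is known mainly from B cells. All donors were C57BL/6 mice given fluorouracil, all recipients were of the same strain, the labelled age was 8 weeks in every group and the labelled genotype was wild type. Cells were taken 14 days after transplantation and sorted as GFP+, Lin-, c-Kit+ and Sca-1+, a gate that holds stem and multipotent progenitor cells. By the labels, sorted cells of the oncogene groups are leukemic stem cells and those with empty vector hematopoietic stem cells. The labels do not give the number of mice behind a replicate, so p-values measure only the spread between these arrays.

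Most interleukins act on few cells at close range, and a receptor usually joins a chain that recognises its own ligand to a chain shared by a family. The beta common family (IL-3, IL-5) and the common gamma chain family (IL-2, IL-7, IL-9, IL-15, IL-21) serve myeloid and lymphoid growth, while gp130, encoded by Il6st, serves IL-6, IL-11 and IL-27. The receptors of these families and of the IL-10 and IL-12 families signal through JAK kinases and STAT factors. IL-1, IL-18, IL-33 and IL-36 use MyD88, and IL-17 receptors use the adaptor Act1, encoded by Traf3ip2. In marrow, IL-3 and IL-6 are known to drive progenitors towards myeloid fates, and in mouse models of chronic myeloid leukemia IL-6 is known as a product of the leukemic cells.

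Values are log2 signals after quantile normalization of the deposited RMA values, in which every array is given the same distribution. The signal of a probe set cannot be ranked against that of another, and no measure of background was used, so a low reading is not shown to be expression. Across genes the replicates correlated at r = 0.992 for BCR-ABL-Blk, 0.994 for BCR-ABL and 0.987 for vector, so the vector arrays were the least alike. Replicate 1 of BCR-ABL-Blk and replicate 1 of BCR-ABL correlated at 0.995, above each of these. The gated marker gene Kit read 10.74 and 10.33 on BCR-ABL-Blk arrays, 10.43 on each BCR-ABL array, and 10.71 and 10.92 on vector arrays. Marker genes of other cells differed in mean signal between the groups. The mean of 9 measured B cell markers was 7.80 and 7.47 on BCR-ABL-Blk, 7.21 and 7.57 on BCR-ABL, and 9.96 and 8.50 on vector arrays. For 7 monocyte markers it was 7.60 and 7.73, 7.65 and 8.00, and 8.59 and 8.54, and for 11 mast cell, basophil and eosinophil markers 9.50 and 8.46, 9.27 and 9.35, and 8.53 and 8.45, in the same order of groups. For 7 dendritic cell markers it was 7.75 and 7.87, 7.64 and 7.73, and 8.79 and 8.50, for 10 neutrophil markers 9.995 and 9.87, 10.11 and 10.49, and 10.36 and 10.93, and for 4 erythroid markers 8.68 and 8.31, 8.87 and 8.83, and 9.60 and 9.20, in that order again. All 7 dendritic cell, 10 neutrophil and 4 erythroid markers were below vector in both oncogene groups, and all 10 neutrophil markers were lower in BCR-ABL-Blk than in BCR-ABL cells, with a median of −0.36. The 11 mast cell, basophil and eosinophil markers were split. In BCR-ABL cells 7 were above vector and 4 below, and in BCR-ABL-Blk cells 6 were above and 5 below. Gzmb read 10.39 and 10.55 on BCR-ABL and 7.22 on each vector array, and Prg2 10.40 and 10.24 against 11.39 and 11.22. The mean of 4 measured megakaryocyte markers was 8.38 and 8.465 on BCR-ABL-Blk, 8.32 and 8.30 on BCR-ABL, and 8.09 and 7.81 on vector arrays. All 4 had a group mean above vector in both oncogene groups. The mean of 7 measured stem cell markers was 9.90 on each BCR-ABL-Blk array, 9.73 and 9.84 on BCR-ABL, and 9.17 and 8.94 on vector arrays. Their part in the differences below was not tested, and in bulk samples more cells of a kind and more RNA per cell cannot be told apart.

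Between BCR-ABL and vector cells Il6 rose, and no other interleukin or receptor gene passed the test. The receptor genes Il18r1, Il12rb2 and Il1rl2 read higher and the ligand Il12a and the receptor genes Il31ra, Il6st and Il17rb read lower in BCR-ABL cells, each without passing. The test was limma over all 19938 genes, called at a Benjamini-Hochberg adjusted p under 0.05. It called 1 of the 71 genes higher, where 0.120% of all genes were called higher, and 0 lower, where 0.0251% of all genes were. An unadjusted p under 0.05 was reached by 14 of the 71 genes (19.7%) and by 8.64% of all genes. The 14 were 9 of the 31 receptor chains, 3 of the 35 ligands and 2 of the other 5. The roles also differed in their probe set readings, which do not rank the expression of genes. A mean above that of the median gene, 7.50, was found for 17 of the 31 receptor chains and 6 of the 35 ligands. The part of signal level in the smaller number of ligands was not tested. Both BCR-ABL arrays lay beyond both vector arrays, on either side, for 32 of the 71 genes (45.1%), and for 37.0% of all genes. The median difference was −0.05 for ligands and −0.01 for receptors, against 0.02 for all genes. The 3 medians lay close to zero.

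Il6 encodes IL-6, the inflammatory ligand of gp130. Its probe set, 10520452, read 6.01 and 5.92 in BCR-ABL cells and 4.28 and 3.84 in vector cells. Both BCR-ABL arrays lay above both vector arrays, which were 0.45 apart. The difference was 1.90 on the log2 scale (SE 0.20, 95% interval 1.45 to 2.36, limma adjusted p = 0.0254). Leaving out vector replicate 1 gave 2.13, and leaving out vector replicate 2 gave 1.68. Whether the vector readings were above background was not measured, so no fold is given. Without either BCR-ABL array the size stayed near that value (1.86 and 1.96), but the adjusted p was 0.244 and 0.260. It was 0.059 without the intensity trend in the fit.

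**Figure D1:**
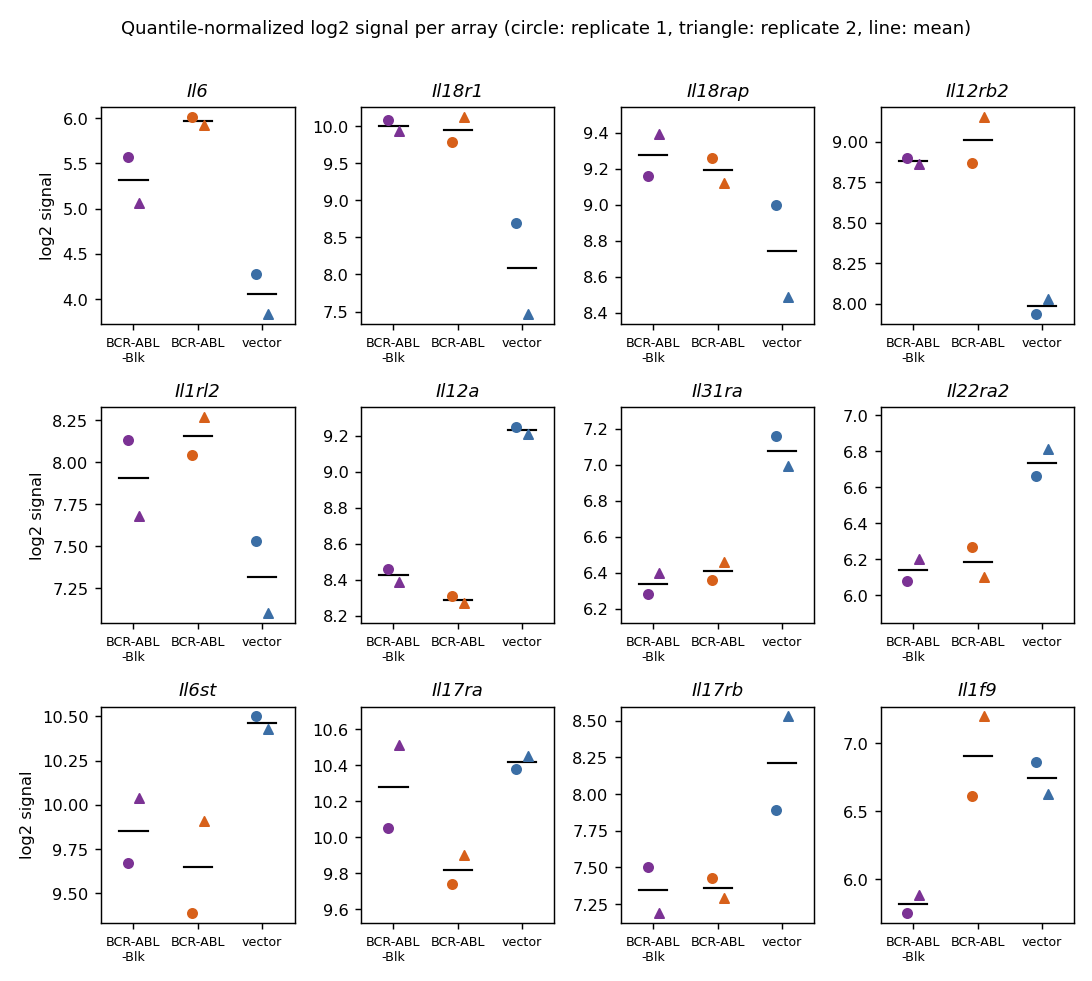
Quantile-normalized log2 signal (vertical axis, a separate range for each gene) of 12 interleukin and receptor genes on the BCR-ABL-Blk, BCR-ABL and vector arrays; a circle is replicate 1, a triangle is replicate 2 and the line is the group mean. Il6 reads highest on the BCR-ABL arrays (6.01 and 5.92) and lowest on the vector arrays, Il12a reads highest on the vector arrays (9.25 and 9.21), and Il1f9 reads lowest on the BCR-ABL-Blk arrays (5.75 and 5.88).

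Among receptors, the IL-18 receptor showed the largest difference. Il18r1, its ligand-binding chain, read 9.78 and 10.12 on BCR-ABL arrays and 8.70 and 7.47 on vector arrays. No arrays overlapped, but the vector arrays differed by 1.22 from each other. The difference was 1.86 (SE 0.35, 95% interval 1.03 to 2.69) and did not pass (limma adjusted p = 0.133). It was 2.46 without vector replicate 1 (adjusted p = 0.0016) and 1.27 without vector replicate 2 (adjusted p = 0.023), so that with a single vector array, assumed to vary like the other groups, it passed. Il18rap, the accessory chain that completes the receptor, read 9.26 and 9.12 in BCR-ABL and 9.0 and 8.49 in vector cells, a difference of 0.45 (adjusted p = 0.588).

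Il12rb2, the chain of the IL-12 receptor that binds STAT4, was more even within groups. It read 8.87 and 9.15 on BCR-ABL and 7.94 and 8.03 on vector arrays, a difference of 1.03 (SE 0.15, adjusted p = 0.0628). It passed with genes above the median level alone (limma adjusted p = 0.041). It also passed without normalization between arrays (limma adjusted p = 0.0079), where 401 genes in all passed. It did not pass with each array centred on its median (0.107) or with only the 2 groups fitted (0.118). The difference was 0.98 and 1.08 without vector replicate 1 and 2, and 1.17 and 0.875 without BCR-ABL replicate 1 and 2. Its partner Il12rb1, shared with the IL-23 receptor, read 8.08 and 7.99 against 8.30 and 7.73 and differed by 0.02. Il23r, the other partner of Il12rb1, was lower in signal, by −0.41 (adjusted p = 0.421). Il1rl2, the receptor of the IL-36 cytokines, read 8.04 and 8.27 in BCR-ABL and 7.53 and 7.10 in vector cells (difference 0.85, adjusted p = 0.234). IL-12 and IL-18 receptors are best known from T and NK cells. The mean of 6 measured NK and innate lymphoid markers was 6.20 and 6.22 in BCR-ABL and 6.60 and 6.43 in vector cells, and that of 7 T cell markers was 6.79 and 6.97 in BCR-ABL and 6.74 and 6.61 in vector cells. Single genes carried much of this: Lat read 10.61 and 10.89 in BCR-ABL and 9.63 and 9.19 in vector cells, and Klrd1 read 5.76 and 5.50 in BCR-ABL and 6.89 and 6.95 in vector cells.

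Of the 4 Il-named receptor genes of the gp130 family, 3 lay on the other side. Il6st, the gp130 chain itself, read 9.39 and 9.91 on BCR-ABL and 10.50 and 10.43 on vector arrays, a difference of −0.81 (SE 0.20, adjusted p = 0.243). Il6ra, the chain that binds IL-6, read 8.04 and 7.98 against 8.18 and 8.59 (−0.38, adjusted p = 0.582). Il31ra, which binds IL-31, read 6.36 and 6.46 against 7.16 and 6.99 (−0.67, SE 0.11, adjusted p = 0.0841, and 0.0446 without vector replicate 2). For these 3 chains every BCR-ABL array read below every vector array, and for the fourth, Il27ra of the IL-27 receptor, every BCR-ABL array read above (0.31, adjusted p = 0.639). Il6, the ligand that rose, and the chains of its own receptor thus had differences of opposite sign. Of related receptor chains not named Il, Osmr differed by 0.07, Cntfr by −0.03 and Lifr by −0.13.

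Il17ra, the chain common to IL-17 receptors, read 9.74 and 9.90 in BCR-ABL and 10.38 and 10.45 in vector cells (−0.59, adjusted p = 0.319). Il17rb, which binds IL-25, read 7.43 and 7.29 against 7.89 and 8.53 (−0.85, adjusted p = 0.263), and its vector arrays were 0.64 apart. It passed without vector replicate 1, as did Il3ra, and neither passed without vector replicate 2. The other 3 IL-17 receptor genes, Il17rc, Il17rd and Il17re, differed by 0.03 to 0.10. Il3ra, the IL-3 binding chain used as a leukemic stem cell marker in human disease, read 8.56 and 8.44 in BCR-ABL and 8.87 and 9.31 in vector cells (−0.59, adjusted p = 0.362). Of the beta common partners, Il5ra differed by −0.18 and the shared chain Csf2rb, not an Il gene by name, by 0.18.

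The 7 receptor chains measured of the common gamma and IL-4 family were nearly level. The common gamma chain itself, Il2rg, had no probe set with a single symbol, and Il2ra and Il7r were left out by the rule. All 7 differences lay between −0.34 and 0.19, with unadjusted p above 0.05, and of them Il2rb alone passed without vector replicate 2. Il4ra, which serves IL-4 and IL-13, read 9.51 on each BCR-ABL array and 9.16 and 9.47 on vector arrays. Il15ra read 8.60 and 8.56 against 8.27 and 8.95, and the vector arrays enclosed the others. The IL-10 receptor family was also close, from −0.11 to 0.25, with Il10rb at 8.80 and 9.49 in BCR-ABL and 9.04 and 9.32 in vector cells and Il20rb at 8.63 and 8.43 against 8.29 and 8.28.

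Among ligands other than Il6, Il12a had the smallest p. It encodes p35, the subunit that makes IL-12 with p40 and IL-35 with Ebi3. It read 8.31 and 8.27 on BCR-ABL and 9.25 and 9.21 on vector arrays, each pair within 0.04. The difference was −0.94 (SE 0.13, 95% interval −1.24 to −0.63) and just missed the threshold (limma adjusted p = 0.0565). It passed with genes above the median level alone (limma adjusted p = 0.040) and without the intensity trend (0.0488). It also passed without normalization between arrays (limma adjusted p = 0.0010), where 401 genes in all passed. It did not pass with each array centred on its median (0.104) or with only the 2 groups fitted (0.113). The difference was −0.91 and −0.97 without vector replicate 1 and 2, and −0.96 and −0.90 without BCR-ABL replicate 1 and 2. Il12b, the p40 subunit, differed by −0.25 and Il23a, the p19 partner of p40 in IL-23, by −0.12. Il1f10, encoding IL-38, read 5.09 and 5.11 in BCR-ABL and 5.32 and 5.51 in vector cells (−0.32, adjusted p = 0.358). Of the 35 ligands, 27 (77.1%) differed by less than 0.25 in either direction, as did 82.6% of all genes. Those 27 include Il3, Il5, Il13 and Il33, whose products act on mast cells, basophils and eosinophils, and Il17a and Il25.

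**Figure D2:**
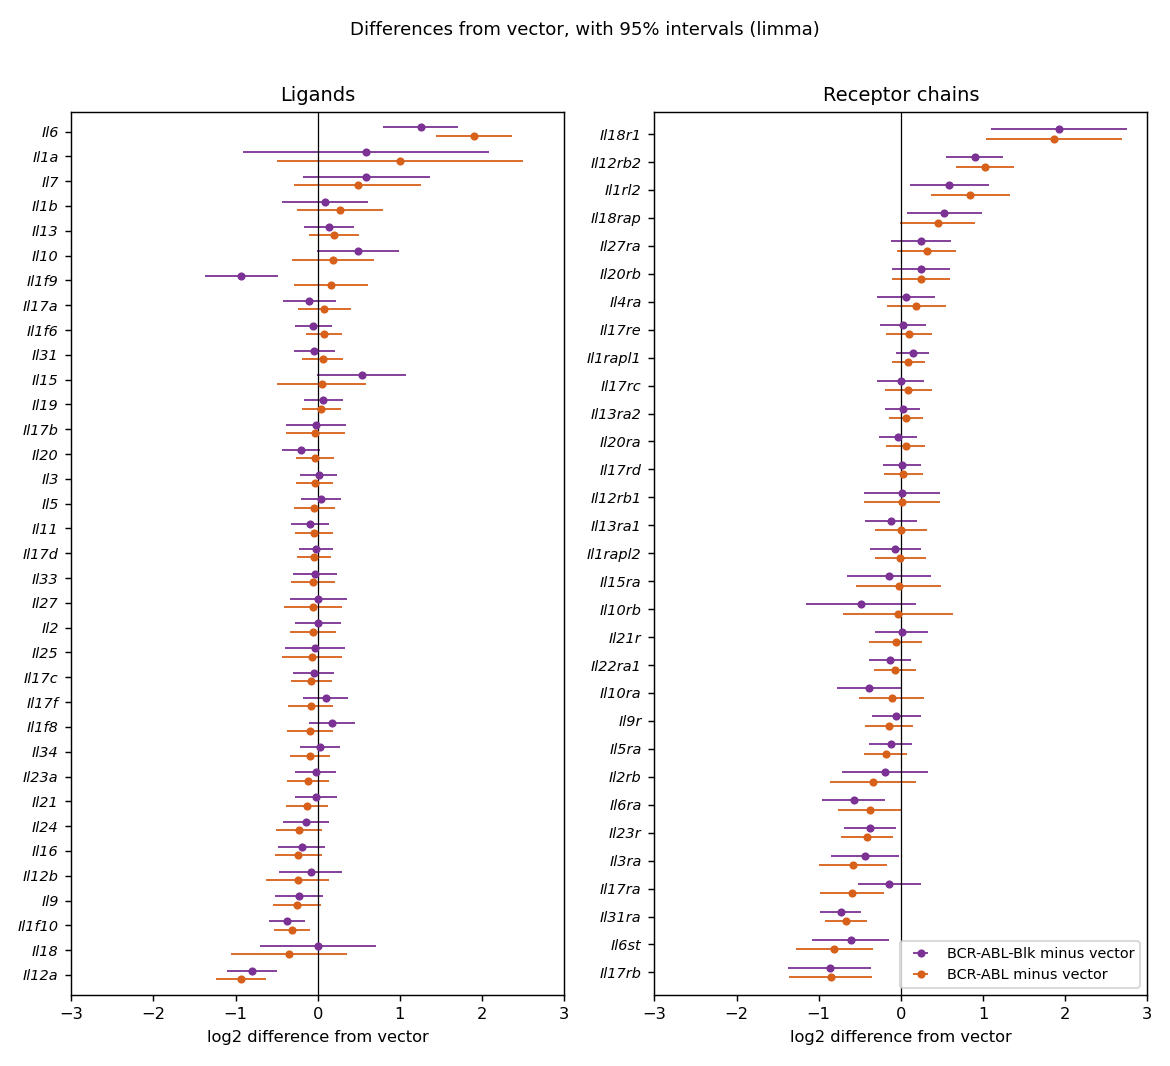
Log2 differences from vector (horizontal axis) of the 35 ligands and the 31 receptor chains, ordered by the BCR-ABL difference; points are limma estimates for BCR-ABL-Blk (purple, upper) and BCR-ABL (orange, lower) and bars are 95% intervals. Il6 (1.25 and 1.90) and Il18r1 (1.92 and 1.86) lie farthest to the right in both, and most ligands lie near zero. The comparisons share the vector arrays.

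Of the genes that are neither ligand nor receptor, Il22ra2, a soluble decoy that binds IL-22, read 6.27 and 6.10 in BCR-ABL and 6.66 and 6.81 in vector cells (−0.55, SE 0.11, adjusted p = 0.154). Il1bos read 5.71 and 5.76 against 5.54 and 5.48 (0.22, adjusted p = 0.562). The antagonists Il1rn and Il1f5 differed by 0.07 and 0.08, and Il18bp, which neutralises IL-18, by −0.14.

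The stretches upstream of 3 of these genes and of Il1f9, described below, are shown because these members had the largest or most even differences and their listed start is also the edge of the gene. Each is the 250 bases before the transcript start, 5′ to 3′ on the gene's strand, from RefSeq on GRCm38.p6, whose table held 54 of the 71 genes. Capitals mark matches on either strand to the AP-1 motif TGANTCA or the STAT motif TTCNNNGAA.
Il6, chr5:30012864-30013113, plus strand: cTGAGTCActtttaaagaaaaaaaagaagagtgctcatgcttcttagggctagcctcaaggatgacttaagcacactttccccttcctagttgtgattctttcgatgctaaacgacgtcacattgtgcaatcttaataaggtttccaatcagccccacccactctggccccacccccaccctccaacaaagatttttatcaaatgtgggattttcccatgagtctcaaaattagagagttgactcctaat
Il18r1, chr1:40465302-40465551, plus strand: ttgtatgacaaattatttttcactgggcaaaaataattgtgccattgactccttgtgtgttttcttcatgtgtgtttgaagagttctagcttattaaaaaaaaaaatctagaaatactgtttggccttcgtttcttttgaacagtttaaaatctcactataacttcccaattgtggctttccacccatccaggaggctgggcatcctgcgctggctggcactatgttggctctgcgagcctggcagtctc
Il12a, chr3:68690394-68690643, plus strand: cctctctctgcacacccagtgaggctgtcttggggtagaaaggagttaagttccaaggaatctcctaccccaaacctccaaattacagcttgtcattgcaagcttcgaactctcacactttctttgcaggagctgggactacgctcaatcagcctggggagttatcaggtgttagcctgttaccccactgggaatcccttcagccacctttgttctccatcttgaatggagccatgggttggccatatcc
Il1f9, chr2:24186226-24186475, plus strand: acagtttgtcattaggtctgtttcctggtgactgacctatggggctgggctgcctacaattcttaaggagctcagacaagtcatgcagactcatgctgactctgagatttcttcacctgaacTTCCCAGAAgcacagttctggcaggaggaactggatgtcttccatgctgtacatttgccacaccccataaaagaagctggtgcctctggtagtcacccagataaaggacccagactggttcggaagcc
The Il6 stretch held 1 AP-1 match, from 249 to 243 bases before the start, and that of Il1f9 held 1 STAT match, from 128 to 120 bases before it. The others held neither, which says only that these letters are not in this window. An AP-1 match stood in 6.7% of all 32851 windows of this length and in 14 of the 65 windows of the interleukin and receptor genes, some of which overlap. A STAT match stood in 7.0% of all windows and in 7 of the 65. The motifs do not overlap in the stretches shown, and a match is a description of letters.

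BCR-ABL-Blk cells were compared with vector cells on the same vector arrays, so these values are not independent of those above. No interleukin or receptor gene passed. Il6 and Il18r1 again read higher, and Il31ra and Il12a lower. Limma called 0 of the 71 higher and 0 lower, where 0.0953% of all genes were called higher and 0.0451% lower. Of the 71, 16 reached an unadjusted p under 0.05 (22.5%, against 9.42% of all genes), and the arrays did not overlap for 31 (43.7%, against 37.2%). Ligands had a median difference of −0.02 and receptors of −0.06, against 0.004 for all genes.

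Il6 read 5.57 and 5.06 on BCR-ABL-Blk arrays, against 4.28 and 3.84 on vector arrays, a difference of 1.25 (SE 0.20, 95% interval 0.80 to 1.71, adjusted p = 0.0714). It passed without vector replicate 1 (1.49, adjusted p = 0.011). Il18r1 read 10.08 and 9.93 against 8.70 and 7.47 (1.92, adjusted p = 0.109), and it passed without either vector array (2.52 and 1.33, adjusted p = 0.0012 and 0.0175). Il12rb2 read 8.90 and 8.86 against 7.94 and 8.03 (0.90, SE 0.15, adjusted p = 0.0761). Il18rap (0.53) and Il1rl2 (0.59) were also above vector on both BCR-ABL-Blk arrays. Without normalization between arrays Il6, Il12rb2, Il18r1 and Il18rap passed. There 732 genes in all passed and the median gene itself differed by 0.15. In that fit variances came from the intensity trend alone and not from each gene.

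Il31ra read 6.28 and 6.40 on BCR-ABL-Blk arrays and 7.16 and 6.99 on vector arrays (−0.73, SE 0.11, adjusted p = 0.0688), the smallest p of the 71 genes in this comparison. Il12a read 8.46 and 8.39 against 9.25 and 9.21 (−0.80, SE 0.13, adjusted p = 0.0714), and Il22ra2 read 6.08 and 6.20 against 6.66 and 6.81 (−0.59, adjusted p = 0.111). Without vector replicate 1, each of these 3 passed (adjusted p 0.0451, 0.0468 and 0.0475), as did Il17rb and Il6ra, and Il31ra passed without vector replicate 2 too (0.0306). Il17rb (−0.87), Il6st (−0.61), Il6ra (−0.57) and Il1f10 (−0.38) lay below vector on both arrays, with adjusted p from 0.229 to 0.366. Il15, a survival factor of NK and memory T cells, read 8.39 and 9.0 against 8.05 and 8.27 (0.54, adjusted p = 0.536).

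BCR-ABL-Blk cells set against BCR-ABL cells address what added Blk changes where the oncogene is present. No interleukin or receptor gene passed. Il1f9, which encodes IL-36 gamma, and Il6 read lower with Blk, and Il17ra read higher. Limma called 0% of all genes in either direction, and no adjusted p of the 71 genes was below 0.999. An unadjusted p under 0.05 was found for 3 of the 71 genes (4.23%, against 3.96% of all genes), and arrays did not overlap for 24 (33.8%, against 34.0%), both close to the share of all genes. Median differences were 0.04 for ligands and −0.04 for receptors, against −0.01 for all genes, and 59 of the 71 genes (83.1%) differed by less than 0.25, as did 88.8% of all genes.

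Il1f9 read 5.75 and 5.88 on BCR-ABL-Blk arrays and 6.61 and 7.20 on BCR-ABL arrays, a difference of −1.09 (SE 0.19, 95% interval −1.54 to −0.65, unadjusted p = 0.00059). Its vector readings, 6.86 and 6.63, overlapped with those of BCR-ABL, and both BCR-ABL-Blk arrays lay below them too (−0.93 against vector, adjusted p = 0.138). Il6 read 5.57 and 5.06 with Blk and 6.01 and 5.92 without it (−0.65, 95% interval −1.11 to −0.19, unadjusted p = 0.0119). Both arrays with Blk thus lay between those of BCR-ABL and vector. Il17ra read 10.05 and 10.51 with Blk and 9.74 and 9.90 without it (0.46, unadjusted p = 0.0261). It passed without normalization between arrays (0.68, adjusted p = 0.0257), where the median gene itself differed by 0.26. Against vector Il17ra differed by −0.14, a sign that turned without normalization (0.05) and without BCR-ABL-Blk replicate 1 (0.09).

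**Figure D3:**
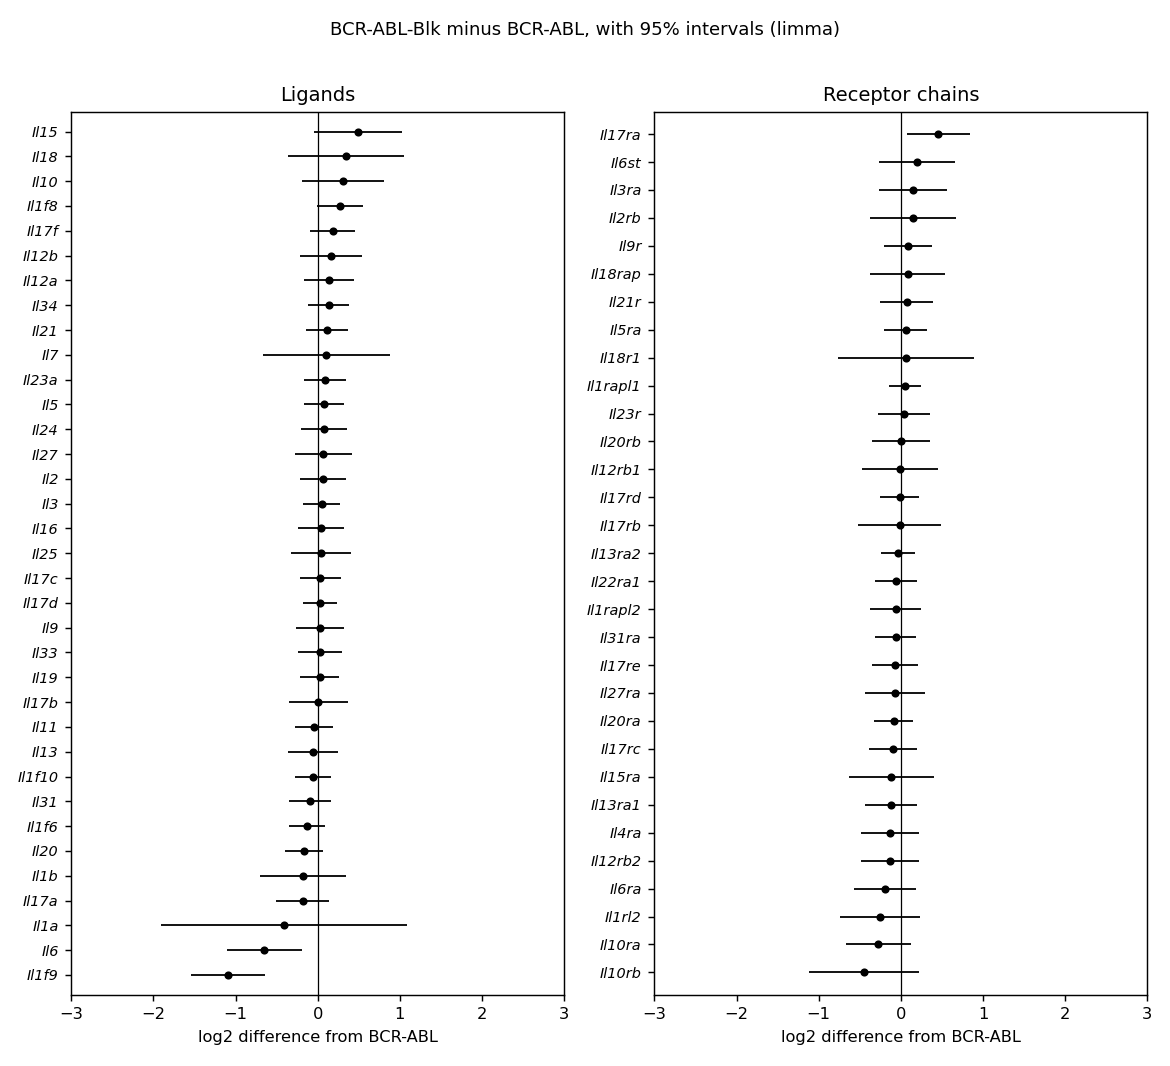
Log2 differences of BCR-ABL-Blk from BCR-ABL (horizontal axis) for the 35 ligands and the 31 receptor chains; points are limma estimates and bars are 95% intervals. Il1f9 (−1.09) and Il6 (−0.65) are the ligands whose interval lies below zero, Il17ra (0.46) is the receptor whose interval lies above it, and no gene passed over all genes.

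Il15 had the largest positive difference of the 71 genes in this comparison, with unequal arrays, and did not pass. It read 8.39 and 9.0 with Blk and 8.39 and 8.02 without it (0.49). Il10, an inhibitor of inflammation, read 5.69 and 5.00 against 4.94 and 5.13 (0.31), and Il1f8, encoding IL-36 beta, 4.69 and 4.73 against 4.50 and 4.38 (0.27). Il18bp read 7.93 and 7.34 against 7.85 and 8.18 (−0.38), and Il10ra, the IL-10 binding chain, 6.90 and 7.25 against 7.16 and 7.54 (−0.28). Il17f (0.18), Il34 (0.13), Il1bos (−0.21) and Il20 (−0.17) were the other genes with the smallest p. The sign turned without normalization between arrays for Il10ra, Il1bos and Il20, where the median of all genes moved to 0.26, and for Il10 without BCR-ABL-Blk replicate 1. Of the receptors with the smallest p against vector, none of which had passed, Il18r1 differed here by 0.06 (95% interval −0.77 to 0.89), Il12rb2 by −0.13 (−0.48 to 0.22) and Il31ra by −0.06 (−0.31 to 0.19).

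Many interleukin genes lie side by side, and by RefSeq gene order, 17 pairs of these members had no other protein-coding gene between them. Differences from vector went the same way in some neighbours. On chromosome 1, Il18r1 and Il18rap are adjacent and Il1rl2 lies 1 protein-coding gene away; their differences in BCR-ABL cells were 1.86, 0.45 and 0.85. On chromosome 13, Il6st and Il31ra are adjacent, at −0.81 and −0.67. In others they did not. On chromosome 6, Il12rb2 and Il23r are adjacent, at 1.03 and −0.41, and on chromosome 10 Il22ra2 (−0.55) lies next to Il20ra (0.06). On chromosome 2 the IL-36 genes Il1f8 and Il1f6 flank Il1f9 and, between BCR-ABL-Blk and BCR-ABL, differed by 0.27 and −0.13 where Il1f9 differed by −1.09.

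The other genes of interleukin signalling were taken as 4 lists, and 0 of their 39 measured genes passed in any comparison. Of 9 JAK and STAT genes, Stat4, the factor that IL-12 activates, read 9.91 and 10 on BCR-ABL-Blk arrays, 9.74 and 9.73 on BCR-ABL arrays and 9.33 and 8.84 on vector arrays. All 4 arrays with the oncogene lay above both without it (0.87, adjusted p = 0.136, for BCR-ABL-Blk and 0.65, adjusted p = 0.313, for BCR-ABL). Stat2, a factor of interferon signalling, was at −0.37 in BCR-ABL-Blk and −0.56 in BCR-ABL cells, and the kinase Jak1 at 0.15 and 0.16. Of 12 genes of IL-1 and IL-18 signalling, Nlrp3, the inflammasome sensor upstream of IL-1 beta release, was at −0.39 in BCR-ABL-Blk and −0.34 in BCR-ABL cells against vector. Tab2, which links TRAF6 to the kinase TAK1, was at 0.20 and 0.25, and Myd88, the adaptor of these receptors, at −0.21 and −0.25, in the same order. Traf6 was at −0.27 in BCR-ABL-Blk cells against vector. Of 6 IL-17 signalling genes, Traf3ip2 was at −0.50 in BCR-ABL-Blk and −0.30 in BCR-ABL cells against vector, and Cebpd, a factor induced by IL-17 and IL-6, at −0.58 and −0.33. Its relative Cebpb was at −0.19 and 0.22, and Nfkbiz at 0.29 and −0.16. Of 12 shared chains and partners outside the Il names, the gp130 ligand Osm was at 0.08 in BCR-ABL-Blk and 0.49 in BCR-ABL cells against vector, and Lif, another, at 0.52 and 0.76. Csf2ra, the GM-CSF binding partner of Csf2rb, was at −0.34 and −0.40, with the arrays of both oncogene groups below those of vector. Tslp, a cytokine that shares Il7r, was at −0.69 and −0.45, and its receptor chain Crlf2 at −0.26 in BCR-ABL-Blk cells. Between BCR-ABL-Blk and BCR-ABL, the genes with the smallest p were Cebpb (−0.41), Nfkbiz (0.45) and Traf3ip2 (−0.20) of the IL-17 list, Osm (−0.41), Ebi3 (−0.28) and Crlf2 (−0.27) of the shared chains, Stat5a (0.23), Stat4 (0.22) and Stat2 (0.19), and Map3k7 (0.14), Irak3 (−0.24) and Traf6 (−0.15), all at a limma adjusted p of 0.999.

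Some members varied more between the arrays of a group than between groups. Il1a, the alarm cytokine IL-1 alpha, read 6.15 and 5.18 on BCR-ABL-Blk arrays, 4.96 and 7.20 on BCR-ABL arrays and 5.07 and 5.09 on vector arrays. BCR-ABL replicate 2 alone read above 7. Il7, the growth factor of lymphoid progenitors, read 6.88 and 5.80, 6.41 and 6.06, and 5.51 and 5.99 in the same order of groups. Il18, the ligand of the receptor described above, read 6.26 and 7.12, 6.23 and 6.45, and 7.02 and 6.35, with no order among groups. Il2rb, the chain shared by the IL-2 and IL-15 receptors, read 6.74 and 6.79 in BCR-ABL-Blk and 6.62 on each BCR-ABL array, while vector replicate 1 stood at 7.35 and vector replicate 2 at 6.57. The same vector array had the higher mean of B cell markers and of NK markers, and their part in this was not tested.

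**Figure D4:**
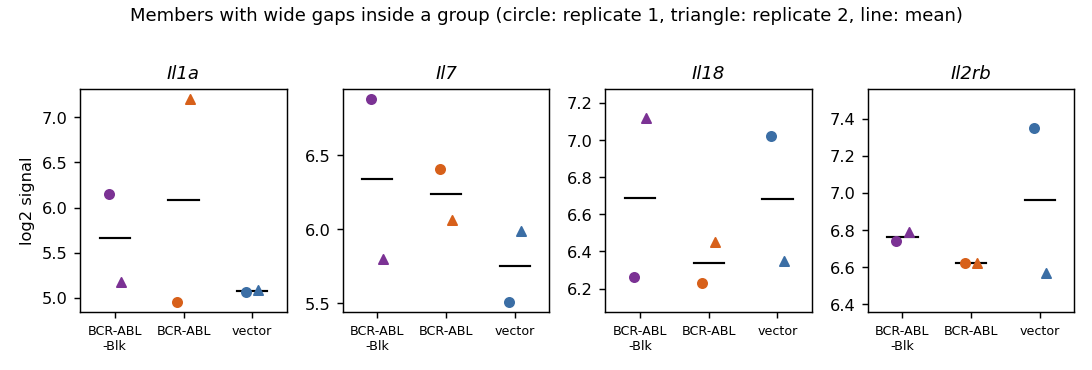
Quantile-normalized log2 signal (vertical axis, a separate range for each gene) of 4 genes whose arrays differ within a group; circles are replicate 1, triangles are replicate 2 and lines are group means. Il1a reads 7.20 on BCR-ABL replicate 2 and between 4.96 and 6.15 on the other 5 arrays, and Il2rb reads 7.35 on vector replicate 1.

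Among other ligands, Il27 and Il17b showed no order among the groups, while for Il16 and Il13 the vector arrays stood apart. None of them passed. Il27, a gp130 ligand, read 8.55 and 8.63 in BCR-ABL-Blk, 8.65 and 8.40 in BCR-ABL, and 8.64 and 8.52 in vector cells, and all groups overlapped. Il17b, a ligand of Il17rb, read 7.59 and 7.93 in BCR-ABL-Blk, 7.86 and 7.64 in BCR-ABL, and 7.77 and 7.79 in vector cells, and again all overlapped. Il16, the precursor of a CD4 ligand, read 7.92 and 7.97 in BCR-ABL-Blk, 7.87 and 7.94 in BCR-ABL, and 8.12 and 8.17 in vector cells, with both vector arrays highest. Il13, which acts through Il4ra, read 7.96 and 7.87 in BCR-ABL-Blk, 8.04 and 7.90 in BCR-ABL, and 7.70 and 7.85 in vector cells, with both vector arrays lowest. Il17rd, Il20rb and Il22ra1 had several probe sets, of which the one with the highest mean was used. Probe sets not used had the opposite sign in BCR-ABL-Blk cells for Il22ra1 against both other groups, for Il17rd against vector, and for Il20rb, where the probe set used differed by 0.002, against BCR-ABL.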

How the data were processed

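RNA of sorted marrow cells was measured on 6 Affymetrix arrays, 2 in each of 3 groups taken from the sample labels. The deposited values are log2 signals; per the submitters' processing notes the authors used Affymetrix Expression Console 1.1 and RMA, and genome build and filters were not stated there. The deposited array medians differed, from 7.01 to 7.52, so the arrays were quantile normalized. Of 35557 probe sets, the platform annotation gives 21789 a single symbol, 1621 several and 12147 none; only the first kind was used. Each of 19938 genes was represented by the probe set with the highest mean over the arrays. All 71 interleukin and receptor genes matched a RefSeq gene by identifier, and no filter on low values was applied. All 6 arrays entered one linear model per gene, with variances moderated along an intensity trend (limma 3.58.1, R 4.3.3), and p-values were two-sided and Benjamini-Hochberg adjusted over all genes. The fit was tested on simulated data. The precision is limited by having 2 arrays a group. Without a background measure, a low array intensity is not shown to be expression.

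Genes named with values were those called, the 6 with the smallest p in each direction of each comparison, the 6 ligands and 10 receptors with the highest mean, the 4 with the widest gap inside a group, and chains shared by several cytokines; for the signalling lists, the 3 with the smallest p. The members and all lists were chosen with earlier results of these data known. Alternatives were no normalization between arrays, centring on the median, another choice of probe set, no trend, array weights, a fit of only the groups compared, genes above the median level alone, the replicate number as a block, and leaving out each array. Replicate numbers did not pair the arrays: deviations from group means of same-numbered arrays correlated at −0.06 to 0.08. Figures were drawn with matplotlib 3.10.9.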

Additional observations from a re-analysis of the deposited data

How the results depend on the processing

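Of 552 pairs of a reported result and an alternative, 512 kept their direction and side of the threshold, 31 came to pass it, 3 lost it and 6 turned their sign. Only Il6 in BCR-ABL against vector passed in the main fit, so it alone could lose the threshold. Its 3 losses were without the intensity trend and without either BCR-ABL array. Apart from Il6, the results among the 512 passed neither in the main fit nor in the alternative. For BCR-ABL against vector, 7 interleukin and receptor genes passed without normalization between arrays (Il6, Il12a, Il12rb2, Il17ra, Il17rb, Il18r1 and Il6st) and 2 with genes above the median level alone (Il12a and Il12rb2), where Il6 is not tested. The count ran from 0 to 6 when single arrays were left out: 0 without either BCR-ABL array and 6 without either vector array. It was 1 under the other alternatives, with Il12a in place of Il6 when no intensity trend was fitted. For BCR-ABL-Blk against vector, 4 passed without normalization, 1 with the replicate number as a block (Il6, adjusted p = 0.0422), and 0 to 7 when single arrays were left out, with 7 without vector replicate 1 and 2 without vector replicate 2. For BCR-ABL-Blk against BCR-ABL, 1 passed without normalization (Il17ra) and 0 otherwise. The block changed no other call. Without normalization the median of all genes moved to −0.11 for BCR-ABL against vector, 0.26 for BCR-ABL-Blk against BCR-ABL and 0.15 for BCR-ABL-Blk against vector, and 401, 79 and 732 genes in all passed, against 29, 0 and 28. Of all genes, 558 passed for BCR-ABL-Blk and 502 for BCR-ABL against vector without vector replicate 1, and 224 and 209 without vector replicate 2. Without either BCR-ABL array 1 of 19938 passed for BCR-ABL against vector, and with genes above the median level alone 53 of 9969. Signs turned without normalization for Il10ra (0.015), Il1bos (0.08) and Il20 (0.115), all with Blk over BCR-ABL alone, and for Il17ra in BCR-ABL-Blk against vector (0.045); leaving out single arrays, Il10 with Blk over BCR-ABL alone ran from −0.034 to 0.651 and Il17ra against vector from −0.365 to 0.086. The cause was not tested. With 2 arrays a group, a difference near the median standard error of 0.13 could not be detected. Far larger differences also failed to pass, such as Il12a (−0.94, SE 0.13) and Il18r1 (1.86, SE 0.35) in BCR-ABL against vector. A gene that did not pass is thus not shown to be unchanged.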
